A study of Mus musculus with 12 samples.

Results

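Zfp42, Nr0b1, Gdf3, Dppa5a, Fbxo15 and Alpl are 6 genes used as markers of undifferentiated mouse embryonic stem (ES) cells. They were followed while the cells differentiated as embryoid bodies (EB), clumps of cells that turn into many cell types with no directing signal. The 6 genes were found by their exact gene symbol, which gave 6 probes, 1 for each gene, out of 9212 genes with a single symbol and 11520 probes. They had been chosen by their log ratios in these data, as markers that decrease on differentiation, so their own ratios are given below as a description and with no test. Every array set RNA of embryoid bodies, dissociated and plated in DMEM with fetal bovine serum for 4, 8, 15 or 21 days, against RNA of undifferentiated R1 ES cells, a mouse line kept here on gelatin in the presence of leukemia inhibitory factor (LIF). Each of the 4 days had 3 arrays with 2 dyes, 12 in all. No further treatment was given, and the age, sorting or cell makeup of the cultures is not described in the labels used here.

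An undifferentiated ES cell is held in its state by a network of transcription factors around Pou5f1, Nanog and Sox2, with LIF acting through Stat3. The network keeps a group of other genes active, which differentiated cells of most types do not use. Such genes serve as markers because their RNA disappears as the network is switched off, although several are used again in germ cells, steroid-producing glands or bone.

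Values are the log ratios the authors deposited, read as base 2, a convention that the labels do not state. A value of -1 then means 1 EB transcript for every 2 in ES cells. Positive values are taken to mean more RNA in EB. That sign is likely but unsettled, since the label protocols give Cy3 to ES and Cy5 to EB RNA, whereas the titles and dye fields point the other way. It was taken from the protocols and from genes of differentiated cells. At day 21, 9.93% of all features were called lower and 8.78% higher. Of the 24 measured genes of differentiated cells, 0 were then called lower and 19 higher. Among these were the serum proteins Afp (3.60 ± 0.44, adjusted p = 0.000205) and Ttr (3.26 ± 0.50, adjusted p = 0.00336) and the matrix protein Postn (2.80 ± 0.21, adjusted p = 7.53e-08; SD, n = 3 arrays each). This list was chosen with earlier results of these data known, so its count is no independent test of the sign. Should the sign be the other one, higher and lower change places throughout. The dyes were not swapped, so a dye effect of a gene remains in each ratio. Whether arrays of the same day held RNA of different cultures is not in the labels, so p-values cover the spread between arrays alone, which may be technical. In 50 features without a gene symbol, 5 arrays stood apart from the other 7: array 3 of day 4, arrays 2 and 3 of day 8, array 3 of day 15 and array 3 of day 21. The 50 were picked from 1448 such features for varying most together between arrays of the same day. The arrays were then cut at the largest gap, so some division was bound to appear and is only a description. Where results of the 6 genes move with these arrays, values of the other 7 are given too. At day 8 those 7 leave array 1 alone.

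The upstream sequences of 3 of the 6 genes were matched in RefSeq's promoter table, build GRCm38.p6. Dppa5a, Gdf3 and Fbxo15 had no match there, so the 3 shown were not picked for their course. Zfp42 and Nr0b1 were among the genes that descended over the days and Alpl was not. A link between sequence and course was not tested. Each line holds the 250 bases before a transcription start, 5′ to 3′ on the strand of the gene, with matches to a searched motif in capitals. The windows are chr8:43307010-43307259 on the minus strand for Zfp42, chrX:86191525-86191774 on the plus strand for Nr0b1, and chr4:137796385-137796634 and chr4:137766476-137766725, both on the minus strand, for the outer and an inner start of Alpl.
Zfp42: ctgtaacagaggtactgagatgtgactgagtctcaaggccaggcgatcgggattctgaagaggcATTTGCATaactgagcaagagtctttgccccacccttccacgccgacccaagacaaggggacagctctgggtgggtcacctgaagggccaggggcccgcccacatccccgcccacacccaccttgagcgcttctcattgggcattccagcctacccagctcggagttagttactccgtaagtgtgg
Nr0b1: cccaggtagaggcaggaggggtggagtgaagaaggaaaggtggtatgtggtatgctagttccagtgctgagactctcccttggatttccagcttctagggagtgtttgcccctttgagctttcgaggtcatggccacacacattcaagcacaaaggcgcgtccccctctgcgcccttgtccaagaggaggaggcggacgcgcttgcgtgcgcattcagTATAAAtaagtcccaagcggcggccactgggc
Alpl, outer start: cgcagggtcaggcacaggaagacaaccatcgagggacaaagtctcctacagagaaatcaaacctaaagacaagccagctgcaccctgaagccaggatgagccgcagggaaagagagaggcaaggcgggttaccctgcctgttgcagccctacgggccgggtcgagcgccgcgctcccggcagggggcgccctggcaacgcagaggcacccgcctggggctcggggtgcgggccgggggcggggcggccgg
Alpl, inner start: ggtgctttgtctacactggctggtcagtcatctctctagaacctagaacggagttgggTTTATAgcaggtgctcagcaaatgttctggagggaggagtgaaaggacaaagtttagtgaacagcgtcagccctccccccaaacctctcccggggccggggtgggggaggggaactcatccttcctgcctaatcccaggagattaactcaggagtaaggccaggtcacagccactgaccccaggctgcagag

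4 motifs were searched on both strands: the octamer ATTTGCAT, read by POU factors such as Pou5f1, the nuclear receptor half-site AAGGTCA, the Sox motif AACAAAG and the TATA box TATAAA. The Zfp42 window held the octamer, 186 to 179 bases before the start. It occurs in 1.60% of 32851 promoter windows of the same length. The Nr0b1 window held TATAAA 32 to 27 bases before the start, and the inner Alpl window held its reverse complement, TTTATA, 192 to 187 bases before the start. TATAAA or its complement occurs in 12.4% of the windows. AAGGTCA, found in 4.08% of the windows, and AACAAAG, found in 5.03%, were not in these 4. The outer Alpl window was 68.4% G and C with 20 CpG dinucleotides, against a median of 52.4% and 6 over all windows. Zfp42 (58.4%, 9 CpG), Nr0b1 (57.2%, 11 CpG) and the inner Alpl start (56%, 4 CpG) lay nearer to that median. These letters are a description, and no binding was measured.

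Zfp42, also called Rex1, encodes a zinc finger protein related to the regulator Yy1. Its log ratios on arrays 1, 2 and 3 were -0.27, -0.58 and -0.41 at day 4 and -0.90, -1.35 and -1.60 at day 8. They were -1.96, -1.95 and -1.38 at day 15 and -2.55, -2.51 and -2.55 at day 21. All 12 values lay below 0, all day 8 arrays lay below all day 4 arrays, and all day 21 arrays lay below all day 15 arrays. Day 15 overlapped day 8 through its array 3. The mean was -0.42 ± 0.15, -1.28 ± 0.35, -1.76 ± 0.33 and -2.54 ± 0.02 over the 4 days. At day 21 this is 17.2% of the ES amount, and Zfp42 then ranked 1 from the lowest of 10689 features. The SD of 0.02 leaves out the choice of processing: the day 21 mean was -2.29 with quantile normalization and -2.07 with scaling of the arrays.

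Nr0b1, or Dax1, is an X-linked orphan nuclear receptor that acts as a corepressor and is also used in the adrenal gland and gonads. It was not below ES at first: its day 4 values were 0.13, 0.33 and 0.09, above 0 on all 3 arrays. The day 8 values of -0.18, -0.67 and -1.66 were the most scattered of the 6 genes on any day. They were followed by -1.41, -1.64 and -1.28 at day 15 and -2.23, -1.94 and -2.24 at day 21. Day 8 lay wholly below day 4 and day 21 wholly below day 15, while day 15 overlapped day 8. The means were 0.19 ± 0.13, -0.84 ± 0.75, -1.44 ± 0.18 and -2.14 ± 0.17, the last being 22.7% of ES. The day 8 mean was -0.43 without array 3, and array 1, the only one of day 8 that did not stand apart, was at -0.18. Its rank from the lowest was 9773 of 10689 features at day 4 and 4 at day 21.

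Gdf3, a secreted ligand of the TGF-beta family that affects Nodal and BMP signalling, also began above ES. Its values were 0.50, 0.18 and 0.21 at day 4, then -0.23, -0.11 and -0.60 at day 8. At day 15 they were -1.14, -1.18 and -0.06, and at day 21 -1.69, -1.91 and -0.90. Day 8 lay wholly below day 4, and the later days overlapped their predecessors. The overlap came from array 3, which was at -0.06 at day 15 and -0.90 at day 21, both times among the 5 arrays that stood apart. Over the other 7 arrays Gdf3 averaged -1.16 at day 15 and -1.80 at day 21. The means of all arrays were 0.30 ± 0.18, -0.32 ± 0.25, -0.79 ± 0.64 and -1.50 ± 0.53. Its 35.4% of the ES amount at day 21 left it less deep than Zfp42, Nr0b1, Dppa5a and Fbxo15.

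Dppa5a, also known as Esg1, encodes a small RNA-binding protein with a KH domain. It had -0.29, -0.25 and -0.05 at day 4 and -0.58, -0.50 and -1.06 at day 8, followed by -1.73, -1.94 and -1.30 at day 15 and -2.30, -2.16 and -1.96 at day 21. It was the only one of the 6 whose arrays did not overlap between any pair of consecutive days. The share of all features with such a course was not counted. Day 21 minus day 15 was -0.49 in the deposited values and -0.19 with scaling of the arrays. For Dppa5a the means of the deposited values were -0.20 ± 0.13, -0.71 ± 0.30, -1.65 ± 0.33 and -2.14 ± 0.18. This was 22.7% of ES at day 21, as for Nr0b1, with a rank of 3 from the lowest.

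Fbxo15 encodes an F-box protein, the part of an SCF ubiquitin ligase that binds the substrate. It had -0.25, -0.21 and -0.45 at day 4 and -0.16, -0.47 and -1.10 at day 8. The values were -1.73, -1.71 and -0.99 at day 15 and -1.98, -2.00 and -2.27 at day 21. Day 8 overlapped day 4, day 15 overlapped day 8, and day 21 lay wholly below day 15. The means were -0.31 ± 0.13, -0.58 ± 0.48, -1.48 ± 0.42 and -2.08 ± 0.16, which is 23.6% of ES at day 21. Without array 3 the day 8 mean was -0.32, and array 1, the only one of that day that did not stand apart, was at -0.16.

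Alpl, the tissue-nonspecific alkaline phosphatase whose activity is stained to recognise ES colonies, did not follow this course. Its values were -0.56, -0.97 and -0.30 at day 4 and -0.51, -0.15 and -0.60 at day 8. They were -0.72, -0.90 and -0.62 at day 15 and -0.94, -0.75 and -0.28 at day 21. All 12 lay below 0. Day 15 lay wholly below day 8, but day 8 and day 21 both overlapped day 4. The means were -0.61 ± 0.34, -0.42 ± 0.24, -0.75 ± 0.14 and -0.66 ± 0.34, with no progressive fall. At day 21 the 2 arrays that did not stand apart averaged -0.84 and the other was at -0.28. Its ratio was partly lower from day 4 on, at 63.5% of ES by day 21, and this course goes against its description as a marker lost on differentiation. As the dyes were not swapped, a steady dye effect and less RNA cannot be told apart for Alpl. Its rank from the lowest was 77 of 10689 features at day 4, deeper than any of the other 5 genes on that day, and 248 at day 21.

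**Figure D1:**
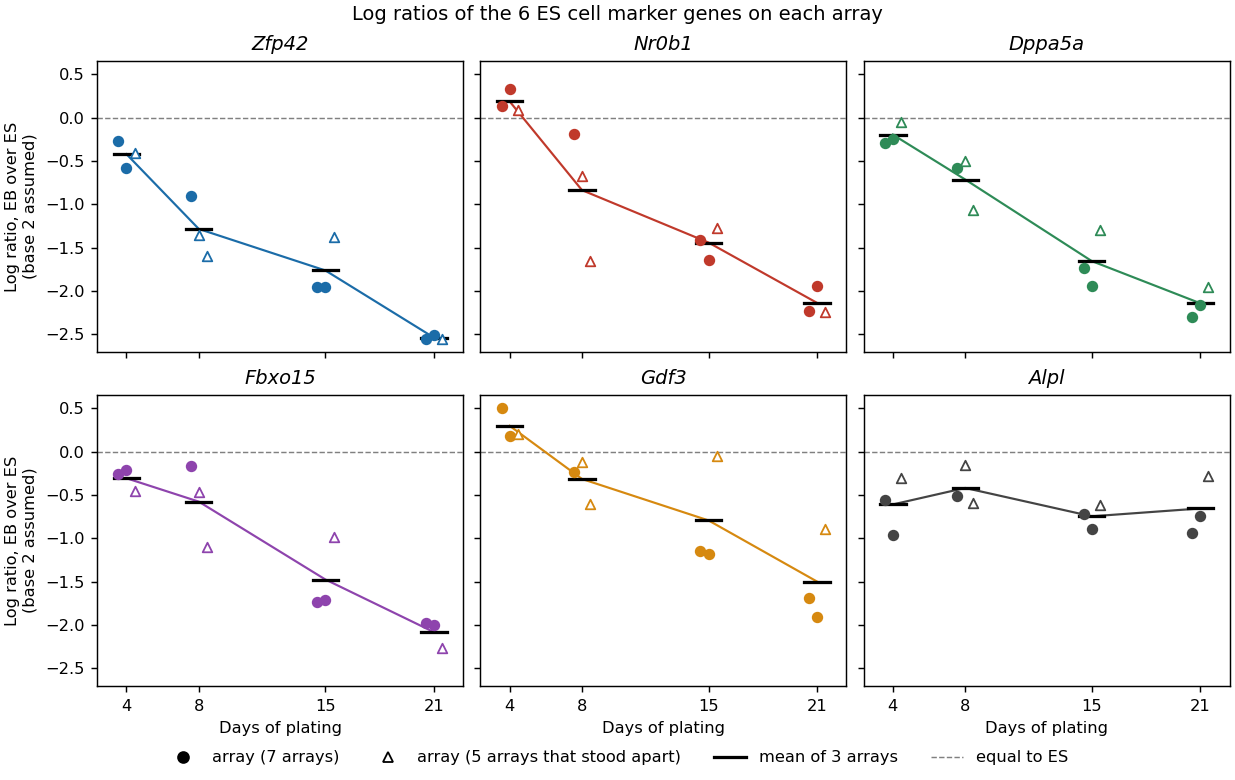
Log ratio of EB over ES (base 2 assumed) of the 6 marker genes against days of plating, 1 panel for each gene. Each symbol is 1 array, triangles being the 5 arrays that stood apart, bars are means of 3 arrays, and the dashed line marks equality with ES. Zfp42, Nr0b1, Dppa5a, Fbxo15 and Gdf3 descend to means between -1.50 and -2.54 at day 21, whereas Alpl stays between -0.42 and -0.75.

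The order and the depth of the decrease differed between the genes. At day 4, 4 of the 6 were below 0 on all 3 arrays, and 6 of 6 were at days 8, 15 and 21. The background for the same count over all features was 15.4% at day 4, 21.9% at day 8, 23.3% at day 15 and 26.6% at day 21, and nothing is read from the excess because the genes were chosen for it. All arrays of day 8 lay below all of day 4 for 4 genes (Zfp42, Nr0b1, Gdf3 and Dppa5a; background 6.26%). For day 15 below day 8 this held for 2 genes (Alpl and Dppa5a; background 7.47%), and for day 21 below day 15 for 4 (Zfp42, Nr0b1, Fbxo15 and Dppa5a; background 7.29%). By day 21 the genes ran from Zfp42, the deepest at -2.54, through Dppa5a and Nr0b1 at -2.14 and Fbxo15 at -2.08, to Gdf3 at -1.50 and Alpl at -0.66. Dppa5a, Nr0b1 and Fbxo15 did not differ beyond their spread, and every day 21 array of Zfp42 lay below every array of the other 5 genes. Every array of Gdf3 lay above those 4 genes, and its array 3, at -0.90, fell within the range of Alpl. Such an order holds for log ratios and says nothing of the amounts of RNA.

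Timing was read as the share of each gene's own day 21 mean that was present on earlier days. Zfp42 was the earliest of the 5 descending genes, with 16.6% at day 4 and 50.6% at day 8. Nr0b1 had 39.1%, Dppa5a 33.3%, Fbxo15 27.7% and Gdf3 21.0% at day 8. Over the 7 arrays the day 8 shares were 35.6% for Zfp42, 25.9% for Dppa5a, 12.8% for Gdf3, 8.75% for Nr0b1 and 8.16% for Fbxo15, so Zfp42 stayed first and the order of the other 4 changed. At day 15 the 5 shares were closer, from 53.0% for Gdf3 through 67.4% for Nr0b1, 69.5% for Zfp42 and 70.9% for Fbxo15 to 77.3% for Dppa5a. Alpl had 93.0% of its day 21 mean at day 4 already, 63.9% at day 8 and 114% at day 15. Fbxo15 and Dppa5a had their largest step from day 8 to day 15 (day 15 minus day 8, -0.90 and -0.94), and so they did over the 7 arrays (-1.56 and -1.26). The 5 arrays that stood apart, 1 on each day except day 8, gave another order. There Fbxo15 was at -0.45, -0.78, -0.99 and -2.27 on the 4 days, falling most after day 15. Dppa5a was there at -0.05, -0.78, -1.30 and -1.96, falling most from day 4 to day 8. For Zfp42 and Nr0b1 too the largest step depended on the arrays. Over all arrays it came from day 4 to day 8 (day 8 minus day 4, -0.86 and -1.02), and over the 7 arrays from day 8 to day 15 (-1.05 and -1.34). Gdf3 had no settled order of steps. Its largest was day 21 minus day 15 over all arrays (-0.71), day 15 minus day 8 over the 7 arrays (-0.93) and day 8 minus day 4 after quantile normalization (-0.76) or scaling (-0.69). The intervals between the days differ in length and the steps were not divided by it, so the largest step need not be the fastest fall. These orders rest on 3 arrays a day and are a description.

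**Figure D2:**
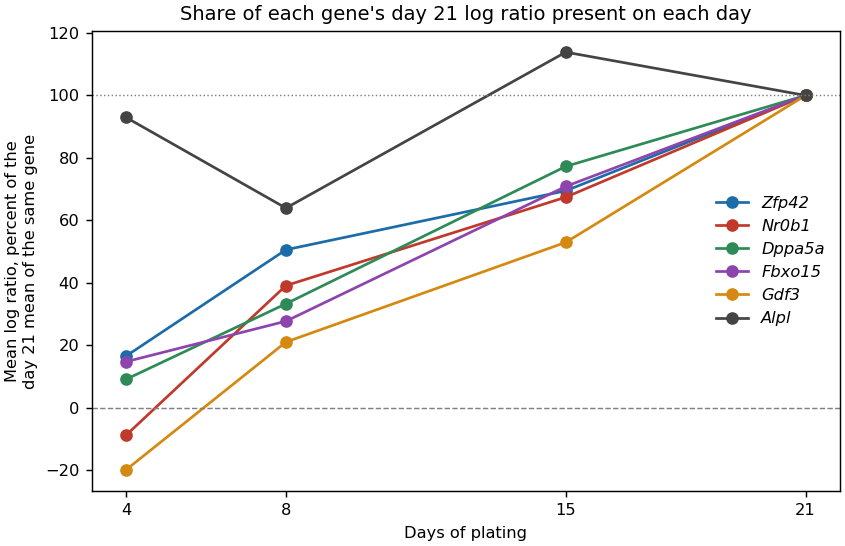
Mean log ratio of each of the 6 marker genes on each day as a percent of its own day 21 mean, against days of plating. Over all arrays Zfp42 has 50.6% by day 8 and Gdf3 21.0% (35.6% and 12.8% over the 7 arrays); Nr0b1 and Gdf3 begin below 0 because they were above ES at day 4, and Alpl is near or above its final value at days 4 and 15.

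Averaged over the 6 genes, the log ratio was -0.17 ± 0.07 at day 4, -0.69 ± 0.36 at day 8, -1.31 ± 0.33 at day 15 and -1.84 ± 0.13 at day 21 (SD over 3 arrays). Without Alpl the 4 means were -0.09, -0.75, -1.43 and -2.08. The spread at days 8 and 15 was shared by the genes: array 3 of day 8 was the deepest for 6 of 6, and array 3 of day 15 the shallowest for 6 of 6. The share of all features with this order was not counted. On days 8 and 15 the median of the genes of differentiated cells moved along with this spread. It was 0.01, 0.13 and 0.46 on arrays 1 to 3 of day 8, and 1.75, 1.73 and 0.93 on those of day 15. The array on which the marker genes were deepest at day 8 was thus the one with the highest median of differentiated genes, and at day 15 the shallowest had the lowest. At day 21 array 1 had the deepest marker mean (-1.95) and the highest median (1.65). At day 4 the marker mean was deepest on array 2 (-0.25), and the median was highest on array 3 (0.05). The spread of all probes differed between the arrays of days 8 and 15 in the same way. Its SD was 0.26, 0.25 and 0.38 on arrays 1 to 3 of day 8, and 0.37, 0.39 and 0.32 on those of day 15. The part of this whole-array spread in the pattern was not tested. In RNA of whole cultures, fewer undifferentiated cells and less marker RNA in each cell cannot be told apart. Over the 7 arrays that did not stand apart, the mean of the 6 genes was -0.19, -0.43, -1.50 and -1.91 on the 4 days, and over the 5 that did it was -0.15, -0.82, -0.94 and -1.70.

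**Figure D3:**
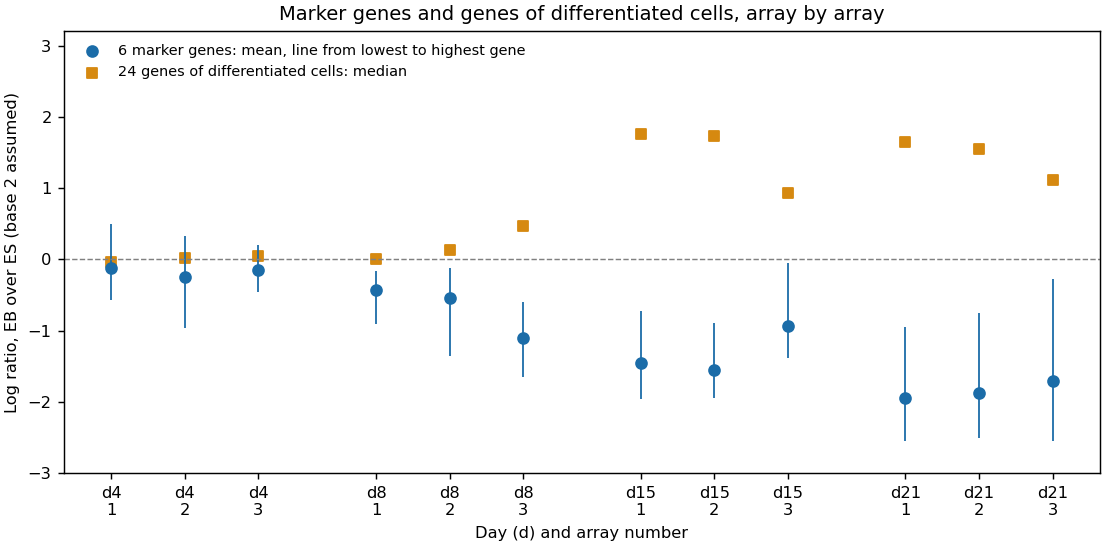
Log ratio of EB over ES (base 2 assumed) on each of the 12 arrays. Circles are the mean of the 6 marker genes, with a line from the lowest to the highest gene, and squares the median of 24 genes of differentiated cells. At day 8 array 3 is the lowest for the marker genes and the highest for the differentiated genes, and at day 15 array 3 is the highest for the marker genes and the lowest for the differentiated genes.

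The 5 descending genes shared a course over the days. They had been chosen for a decrease, and Alpl was set apart for lacking it, so a high r follows from the choice. Their 10 pairs had Pearson r between 0.85 (Nr0b1 and Gdf3) and 0.96 (Zfp42 and Nr0b1) over the 12 arrays, and between 0.95 and 1.00 over the 7 arrays. The arrays share the ES comparison and the day means, and after the day means were taken out r was 0.26 to 0.87. The 5 pairs with Alpl had r of 0.18 to 0.41, and after the day means were taken out -0.01 to 0.68.

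Other genes with the same course were ranked by their r with the mean of the 6 genes over the 12 arrays, which shares their day means and array effects. Of 9206 other genes, 55 had r above 0.9 and 264 above 0.8. The 8 highest were Rangrf, a Ran guanine nucleotide release factor (0.978), Gsta4, a glutathione transferase (0.970), Phb, prohibitin of mitochondria (0.960), the transcription factor Klf9 (0.954), the ubiquitin hydrolase Uchl3 (0.952), Aurkc, an Aurora kinase of meiotic cells (0.950), the histone kinase Haspin (0.948) and the nuclear pore protein Nup155 (0.946). Having been chosen by r, they were alike in shape, and they were mostly shallower. The choice depended on the measure: of these 8, 3 were among the 8 highest by Spearman's rho and 1 by r over the 4 day means. Aurkc came closest in depth, with a root mean square distance of 0.35 between day means and -1.27 at day 21, while Haspin was at -0.57 on that day with a distance of 0.85. For single genes, the nearest were Gsta4 for Zfp42 (0.983), Uchl3 for Nr0b1 (0.953), Ckmt1 for Gdf3 (0.959), Phb for Dppa5a (0.970), Acp6 for Fbxo15 (0.974) and Rad17 for Alpl (0.923). The next were Cycs for Zfp42 (0.966), Gsta4 for Nr0b1 (0.949), Rangrf for Gdf3 (0.952) and Dppa5a (0.967), Upp1 for Fbxo15 (0.953) and Cnot8 for Alpl (0.867). Upp1, a uridine phosphorylase, also matched Fbxo15 in depth, with a distance of 0.18.

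**Figure D4:**
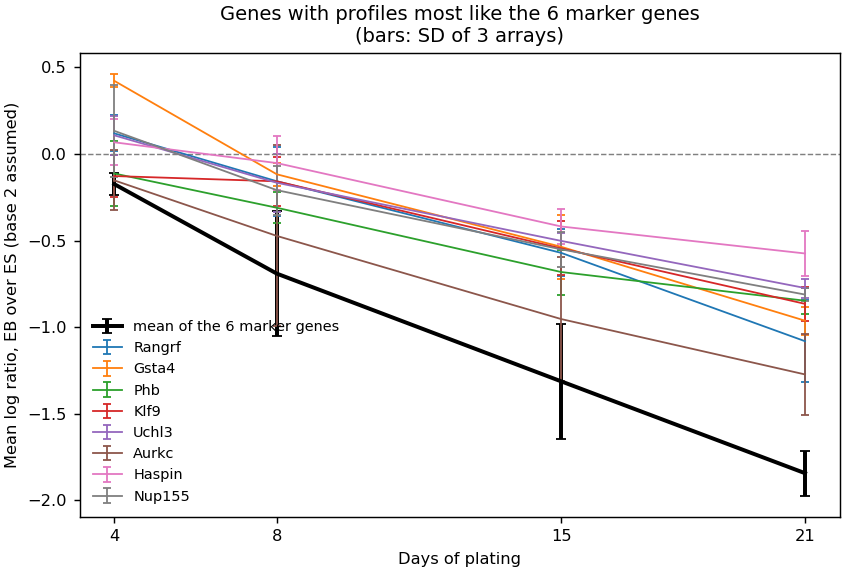
Mean log ratio of EB over ES (base 2 assumed) against days of plating for the mean of the 6 marker genes (black) and the 8 genes with the highest r to it. Bars are the SD of 3 arrays. The 8 genes share the descending shape, for which they were chosen. At day 21 they lie between -0.57 for Haspin and -1.27 for Aurkc, above the marker mean of -1.84.

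Around the 6 markers, 32 of 43 other listed genes of the ES cell network were measured. They were tested with limma on each day against ES, with p-values adjusted over all features. At day 4 none of the 32 was called, and 0.0% of all features were called lower and 0.0% higher. On that day 1081 features had an unadjusted p under 0.05, and the smallest adjusted p was 0.0726. At day 8, 4 network genes were lower (Nanog, Sox2, Phc1 and Ash2l), against 1.06% of all features called lower and 1.23% higher. At day 15, 12 were lower, against 4.9% lower and 5.66% higher, and at day 21, 17 were lower, against 9.93% lower and 8.78% higher. No network gene was called higher on any day. From day 4 to day 21, 8 fell (background 3.22% lower and 2.62% higher), Phc1, Nanog, Mybl2, Pou5f1 and Sox2 among them. The median of the 32 was -0.02, -0.24, -0.31 and -0.41 on the 4 days, where the median of all features stayed within 0.01 of 0. Over the 7 arrays, 0 network genes were called at day 8, 14 lower of 15 called at day 15 and 17 lower at day 21. Leaving out array 2 of day 8 left 0 calls at day 8, and leaving out array 2 of day 15 left 4 at day 15. Without array 1 of day 21, 8 were called at day 21 and 4 fell between day 4 and day 21.

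Within the network, Phc1, a Polycomb protein, was among the lowest, at -1.79 ± 0.11 at day 21 (adjusted p = 1.93e-06). Tdgf1, the Nodal co-receptor Cripto, was at -1.78 ± 0.63 (adjusted p = 0.00395), and the transcription factor Nanog at -1.69 ± 0.42 (adjusted p = 7.91e-05). The maternal and germ cell factor Dppa3 was at -1.59 ± 0.44 (adjusted p = 0.00109) and the cell cycle regulator Mybl2 at -1.53 ± 0.09 (adjusted p = 5.08e-05). The Akt coactivator Tcl1 (-1.40 ± 0.89, adjusted p = 0.00887), the DNA methylation cofactor Dnmt3l (-1.28 ± 1.08, adjusted p = 0.0252) and the homeobox factor Gbx2 (-1.16 ± 0.69, adjusted p = 0.00356) varied more between arrays. Sox2 reached -1.01 ± 0.20 (adjusted p = 1.97e-04) and Pou5f1 -0.74 ± 0.18 (adjusted p = 0.00411). Zfp42 at -2.54 and Dppa5a, Nr0b1 and Fbxo15 between -2.14 and -2.08 were thus deeper than every one of the 32 measured network genes at day 21, a difference that was not tested since the 6 were chosen for their decrease. The 10 network genes given above with their p-values were all called at day 21, and 6 of the 10 kept their call without each of the 12 arrays in turn. The other called network genes were not followed singly. Tdgf1 lost it without array 1 of day 21 (adjusted p = 0.0542), as did Pou5f1 (adjusted p = 0.053), and Tcl1 and Dnmt3l lost it without array 1 or 2. Dnmt3l also lost it under scaling and with the day fitted alone. Of the same 10 genes, 9 were called at day 15, of which 3 kept the call without each array, and 3 at day 8, of which 0 did.

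Part of the network gave no call. Esrrb was at -0.17 ± 0.25 at day 21 (adjusted p = 0.245), Klf2 at -0.17 ± 0.05 (adjusted p = 0.37) and Tfcp2l1 at 0.01 ± 0.14 (adjusted p = 0.923), all transcription factors of naive ES cells. These 3 were chosen after their values were seen, and so was Klf5 of the same list, called lower at -0.73 ± 0.31 (adjusted p = 0.00747). Nanog was also called lower at day 21 and kept its call without each array, so the lack of a call does not extend to such factors in general. Klf4 was called lower too, but lost its call without array 1 or 2 of day 21. Whether the probes without a call gave signal was not checked.

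**Figure D5:**
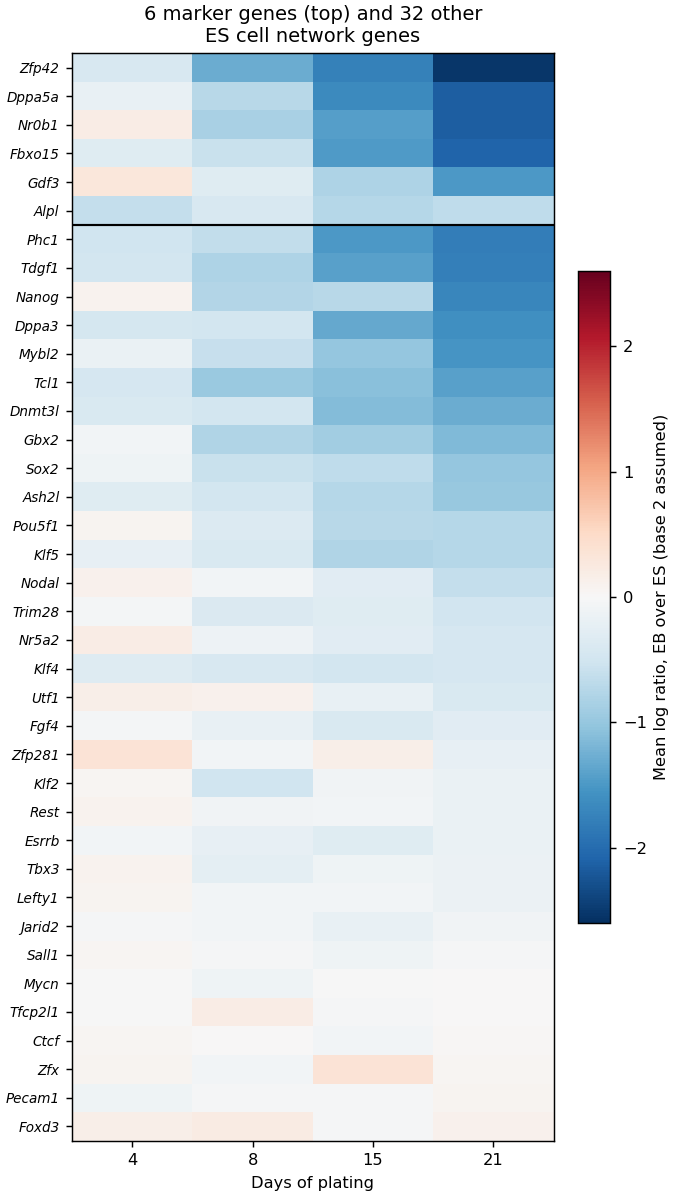
Mean log ratio of EB over ES (base 2 assumed, colour) of the 6 marker genes (above the line) and 32 other ES cell network genes, ordered by their day 21 mean, against days of plating. The marker genes other than Alpl darken from day 4 to day 21, the upper part of the network list follows to -1.79 for Phc1, and the lower part of the list stays near 0.

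The pathways in which the marker genes act were followed by lists, whose counts at day 21 stand against 9.93% of all features called lower and 8.78% called higher. For Gdf3, 18 genes of Nodal and Gdf3 signalling were measured, and 3 were called lower and 1 higher at day 21 (median 0.06). The lower ones were the ligand Nodal (-0.61 ± 0.16, adjusted p = 0.00162), its co-receptor Tdgf1, given above, and the transcription factor Foxh1 (-0.73 ± 0.38, adjusted p = 0.00793, 0.059 without array 1 and 0.0916 without array 2 of day 21). The mean of Gdf3 itself, -1.50, lay between those of Foxh1 and Tdgf1. For Fbxo15, 13 other genes of SCF ligases were measured, of which 2 were called lower and 0 higher at day 21 (median -0.01). They were Fbxo5, an F-box inhibitor of the anaphase-promoting complex (-0.71 ± 0.17, adjusted p = 0.00026), and Uba3, which activates Nedd8 (-0.24 ± 0.03, adjusted p = 0.0374). With 13 genes, this count lies near the share over all features. The adaptor Skp1, which binds the F-box protein (-0.31 ± 0.01, adjusted p = 0.0869), and the scaffold Cul1 (0.34 ± 0.28, adjusted p = 0.0939) passed no test at day 21.

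For Alpl, none of 6 measured genes of other alkaline phosphatases and of pyrophosphate and phosphate handling was called at day 21 (median 0.02). Akp3 was at -0.18 ± 0.20 (adjusted p = 0.509), Slc20a1 at 0.15 ± 0.14 (adjusted p = 0.404) and Ank at 0.09 ± 0.12 (adjusted p = 0.568). Alpl is also made by osteoblasts, and of 8 measured genes of bone, 0 were lower and 3 higher at day 21 (median 0.25). These 3 were the matrix genes Col1a2 (1.94 ± 0.38, adjusted p = 0.000167), Sparc (1.17 ± 0.19, adjusted p = 0.00235) and Col1a1 (1.02 ± 0.20, adjusted p = 0.000105), which many connective tissue cells use. The osteoblast factor Sp7, chosen after its value was seen, was at 0.21 ± 0.25 (adjusted p = 0.205). Whether such cells contribute to the flat course of Alpl was not tested.

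Nr0b1 is also used in steroid-producing glands, and none of 9 measured steroidogenic genes was called on any day, with a median of 0.22 at day 21. The ACTH receptor Mc2r was at 0.38 ± 0.22 (adjusted p = 0.106), Cyp11a1 at 0.29 ± 0.05 (adjusted p = 0.218) and Cyp17a1 at 0.23 ± 0.21 (adjusted p = 0.4). Yy1, the relative of Zfp42, was at 0.03 ± 0.20 at day 21 (adjusted p = 0.846). Dppa5a, Gdf3 and Alpl are shared with germ cells, and of 9 measured germ cell genes, 5 were called lower and 0 higher at day 21 (median -0.56): Dppa3, given above, Dazl, Sycp1, Sycp3 (-1.07 ± 0.50, adjusted p = 0.00053) and Stk31 (-1.04 ± 0.64, adjusted p = 0.00321). Sycp3, a protein of meiotic chromosomes, had been higher than ES at day 8 (0.85 ± 0.10, adjusted p = 0.019), when all 3 arrays of Zfp42, Dppa5a and Nr0b1 were already below ES.

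Of 18 measured genes of LIF and Stat3 signalling, 1 was called lower and 2 higher at day 21, near the share over all features, with a median near 0. They were the transcription factor Klf4 (-0.44 ± 0.25, adjusted p = 0.0287), the kinase Jak2 (0.41 ± 0.12, adjusted p = 0.0174) and Stat3 (0.24 ± 0.05, adjusted p = 0.0429). The kinase Pim3 was at -0.32 ± 0.23 (adjusted p = 0.0729). Klf4 and Jak2 passed no test without array 1 or 2 of day 21 (adjusted p from 0.143 to 0.209 and from 0.0989 to 0.122). Both also lost their calls under scaling, and Klf4 with quantile normalization and with the day fitted alone. Genes of the formative and primed epiblast, the state that follows the ES state, gave 1 lower and 3 higher of 14 (median 0.13). The DNA methyltransferase Dnmt3b was at -1.02 ± 0.69 (adjusted p = 0.0103), Fst at 0.73 ± 0.11 (adjusted p = 0.019) and Sox4 at 0.55 ± 0.06 (adjusted p = 0.021), and each lost its call without array 1 or without array 2 of day 21, Sox4 also without array 3 (adjusted p from 0.0779 to 0.116). All 3 lost it under scaling, Dnmt3b and Fst with quantile normalization, and Dnmt3b with the day fitted alone. Genes of fibroblasts, which can accompany ES cultures, moved both ways at day 21, with 3 lower and 4 higher of 12 and a median between 0.01 and 0.11 on its 3 arrays. S100a4 (-1.72 ± 0.21, adjusted p = 0.00622, 0.0547 without array 1) and Ccl2 (-1.08 ± 0.87, adjusted p = 0.0342, 0.211 to 0.232 without array 1 or 2) were lower and Dcn (1.39 ± 0.28, adjusted p = 0.00147) higher. Ccl2 also lost its call under both rescalings and with the day fitted alone. The part of such cells in the ratios of the marker genes was not tested.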

How the data were processed

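The deposited values are normalized log ratios of the 2 channels, per the labels; base 2 (log2) is assumed, and the authors' normalization, scanner and background correction are not given in the sources used here. The table held 0 missing values. Probes were named through GEO's platform annotation, where 10043 had 1 symbol, 29 several and 1448 none. Averaging the probes of each gene left 10689 features. Spot signals were not used here, and the number of arrays limits the precision.

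limma 3.58.1 under R 4.3.3 fitted 1 mean for each day over 12 arrays (lmFit, eBayes), with 8 residual and 4.35 prior degrees of freedom. Tests were two-sided, against 0 or between days, with Benjamini-Hochberg adjusted p over all features and a threshold of 0.05. The ES channel counts as 1 control sample, so its own spread is left out. Errors are SDs over 3 arrays. The members and gene lists were chosen with earlier results of these data known.

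The text names the 6 genes, up to 8 called network genes with 1 sign on all 3 arrays and the largest day 21 means, Pou5f1, Nanog and Sox2, up to 3 genes of each other list by day 21 mean, and the genes of highest r. Others are named as members of short counts or said to be chosen after their values were seen. The main fit did not pair arrays by their number in the titles. Deviations from the day means correlated from -0.14 to 0.38 between arrays of the same number. The number is not free of structure, since array 3 of all 4 days was among the 5 arrays that stood apart. Alternatives were other scalings, array weights, single days, each array left out, medians, a replicate block and, chosen after seeing the data, the sets of 7 and 5 arrays. Plots used matplotlib 3.10.9.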

Additional observations from a re-analysis of the deposited data

Results flagged for a closer look

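Nr0b1 and Gdf3 lay above ES on all 3 arrays of day 4 and below ES on all 3 arrays of each later day. Nr0b1 differed from its day 4 mean by -1.02 at day 8, -1.63 at day 15 and -2.33 at day 21. For Gdf3 the later day minus day 4 was -0.61, -1.09 and -1.80. These differences were not tested, since the genes were chosen for their decrease, and the day 15 value of Gdf3 on array 3 was only -0.06.

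The ratio against ES also differed between day 21 and day 4 by limma's contrast (adjusted p under the threshold) for several named genes. Day 21 minus day 4 was -1.28 for Phc1, -1.78 for Nanog, -1.36 for Mybl2, -0.82 for Pou5f1 and -0.90 for Sox2 in the ES cell network. It was -1.54 for Dnmt3b, -0.71 for Nodal, -0.74 for Fbxo5 and -1.41 for Sycp3. It was positive for the matrix genes Col1a2 (2.13), Sparc (1.27), Col1a1 (1.11), Postn (2.83) and Dcn (1.41) and for Afp (3.29). Calls for Pou5f1, Sox2, Dnmt3b, Nodal, Sparc, Dcn and Afp were lost when some single arrays were left out, array 1 of day 21 among them for all 7. They were also lost under scaling for Pou5f1, Sox2, Sparc, Dcn and Afp, with quantile normalization for Sparc and Afp, on the 7 arrays for Nodal and Dcn, and with the days fitted alone for Dnmt3b. The other 8 kept theirs under each alternative run.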

How the results depend on the processing

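The mean of the 6 marker genes kept its sign under every alternative run. Its day 21 value of -1.84 became -1.66 with quantile normalization, -1.49 with scaling and -1.70 on the 5 arrays that stood apart (chosen after seeing the data), and its day 15 value of -1.31 became -0.94 on those 5. Leaving out 1 array gave -0.20 to -0.14 at day 4, -0.82 to -0.49 at day 8, -1.50 to -1.19 at day 15 and -1.91 to -1.79 at day 21. For single genes, the day 21 means of Nr0b1, Dppa5a, Fbxo15 and Gdf3 were -1.92, -2.00, -1.90 and -1.32 with quantile normalization. With scaling they were -1.75, -1.73, -1.71 and -1.18. Network genes called numbered 0 at day 4, 3 with quantile normalization and 2 with array weights. The 4 at day 8 became 7 with quantile normalization, 8 with scaling, 10 with array weights, 8 with a term for the array set, 0 on the 7 arrays, 0 with the day fitted alone and 0 to 6 without single arrays. The 12 at day 15 became 20 with array weights, 4 with the day alone and 4 to 15 without single arrays. The 17 at day 21 became 8 to 17 without single arrays. The 8 between day 21 and day 4 became 5 with scaling, 15 with array weights and 4 to 11 without single arrays. The cause was not tested. With the replicate block the counts were 0, 5, 14 and 15 on the 4 days and 9 between days.

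Features called moved likewise. The 0 at day 4 became 119 with quantile normalization, 47 with scaling, 94 with array weights, 79 with a term for the array set and 0 to 2 without single arrays. The 244 at day 8 became 522, 612, 999 and 486 under these, 10 on the 7 arrays, 1 with the day alone and 6 to 380 without single arrays. The 1129 at day 15 became 3251 with array weights, 1742 on the 7 arrays, 259 with the day alone and 235 to 1554 without single arrays. The 1999 at day 21 became 1080 with quantile normalization, 992 with scaling and 753 to 2221 without single arrays. The 624 between day 21 and day 4 became 368, 318, 1343 with array weights, 395 with those days alone and 223 to 773 without single arrays. Each marker gene had 1 probe, so single probes gave no other value. Of the 8 most alike genes, 3 were shared by Spearman's rho and 1 by r over day means.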
